A study of Mus musculus with 6 samples.

Results

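The genes described here make fatty acids from acetyl units in the cytosol or switch that pathway on. They are 10 genes among 19938 genes measured: Fasn, Acaca, Acacb, Acly, Acss2, Me1, Slc25a1, Srebf1, Mlxipl and Thrsp. They were chosen by name, with earlier results of these data known. Each has at least 1 probe set that the platform annotation assigns to a single gene symbol, 12 probe sets in all. Acaca and Me1 have several, and the brightest on average stands for the gene.

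Messenger RNA of mouse type II alveolar epithelial cells, the surfactant-making cells of the lung, was measured on 6 Affymetrix arrays. Each array held RNA of cells pooled from 3 adult mice aged 8 weeks and homogenised 2 hours after isolation by collagenase and differential plating. In 3 pools, labelled knockout, the mice carried SP-C-rtTA, (tetO)7CMV-Cre and the conditional allele Gpr116flx/flx. The 3 control pools carried SP-C-rtTA and (tetO)7CMV-Cre without the conditional allele, so both groups shared the transgenes. SP-C-rtTA places Cre under the surfactant protein C promoter, through a transactivator that needs doxycycline, so deletion is limited to cells that have used that promoter, and no time of induction is given in the labels. The comparison asked what loss of Gpr116, an adhesion receptor, does to gene expression in these cells.

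The label of the targeted gene could not be checked on these arrays. Gpr116, listed as Adgrf5, read 11.89, 11.78 and 11.87 in the knockout-labelled pools, against 11.49, 11.53 and 11.51 in the control pools, a log2 difference of 0.34 ± 0.05 (SE, 3 pools in each group; limma adjusted p = 0.0119). That call was lost without any single control pool (adjusted p of 0.0596 to 0.0648) and in the female pools alone (0.0643). The probe set of Gpr116 may lie outside the deleted part, whose position is not given here. All directions below therefore rest on the labels. Array medians lay between 6.77 and 6.81, which largely follows from the normalization of the deposited values and is no check of the arrays. Type II cell markers were bright, with list means of 12.27 to 12.32 on the knockout-labelled arrays and 12.19 to 12.22 on the control arrays, and 2 of 12 were called higher. Labelled knockout 2 and control 1 were male pools by Xist and Y-linked genes, and the other 4 were female.

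Fatty acid synthesis starts from citrate, which Slc25a1 carries out of the mitochondrion. ATP citrate lyase, encoded by Acly, splits it into acetyl-CoA, and the cytosolic acetyl-CoA synthetase Acss2 makes the same product from acetate. Acetyl-CoA carboxylase turns acetyl-CoA into malonyl-CoA. The form encoded by Acaca is cytosolic and feeds synthesis, whereas the form encoded by Acacb sits at the mitochondrial surface, where malonyl-CoA restrains fatty acid oxidation. Fatty acid synthase, Fasn, builds palmitate from these units with NADPH, part of which comes from malic enzyme, Me1. The transcription factors SREBP1 (Srebf1) and ChREBP (Mlxipl) switch on most of these genes, and Thrsp is a small lipogenic protein of liver and fat. Type II cells need palmitate for dipalmitoyl phosphatidylcholine, the main lipid of surfactant.

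The sequence just before the start of these genes is shown for 4 of them, to set side by side the synthase and the lyase, which were higher on the knockout-labelled arrays, and Acss2 and Mlxipl, which were not. All 10 genes matched the RefSeq promoter table (GRCm38.p6), with 14 windows in all, since Me1 and Mlxipl have 2 annotated starts each and Srebf1 has 3. The 250 bases before the start are printed 5′ to 3′ in the direction of transcription. They are chr11:120824548-120824797 on the minus strand for Fasn, chr11:100528001-100528250 on the minus strand for Acly, chr2:155517793-155518042 on the plus strand for Acss2 and chr5:135089640-135089889 on the plus strand for the first start of Mlxipl. Capitals mark the letters of the NF-Y box CCAAT, the GC box GGGCGG or the E-box CACGTG on either strand, so a box on the other strand reads ATTGG or CCGCCC.
Fasn: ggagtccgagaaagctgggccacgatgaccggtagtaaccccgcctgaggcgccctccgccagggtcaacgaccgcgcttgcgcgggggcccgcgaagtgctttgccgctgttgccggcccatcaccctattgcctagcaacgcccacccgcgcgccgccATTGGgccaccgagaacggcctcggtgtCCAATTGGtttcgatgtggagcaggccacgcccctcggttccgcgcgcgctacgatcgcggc
Acly: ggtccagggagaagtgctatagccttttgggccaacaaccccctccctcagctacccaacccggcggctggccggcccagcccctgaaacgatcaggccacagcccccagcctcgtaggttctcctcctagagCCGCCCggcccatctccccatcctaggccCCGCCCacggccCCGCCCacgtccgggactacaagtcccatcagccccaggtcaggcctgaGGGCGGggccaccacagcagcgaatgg
Acss2: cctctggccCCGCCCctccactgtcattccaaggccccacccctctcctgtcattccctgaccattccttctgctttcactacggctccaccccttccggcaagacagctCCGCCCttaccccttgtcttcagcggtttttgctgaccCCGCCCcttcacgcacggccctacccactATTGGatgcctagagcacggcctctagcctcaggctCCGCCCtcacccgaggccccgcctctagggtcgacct
Mlxipl, first start: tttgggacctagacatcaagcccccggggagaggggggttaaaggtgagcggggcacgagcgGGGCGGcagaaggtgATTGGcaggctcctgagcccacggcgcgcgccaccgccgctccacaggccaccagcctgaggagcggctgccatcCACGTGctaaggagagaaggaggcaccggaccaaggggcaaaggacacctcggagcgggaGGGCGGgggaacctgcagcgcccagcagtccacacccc

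The Fasn window held 3 NF-Y boxes, with first bases 90, 62 and 59 bases before the start, the last 2 of which overlap on opposite strands, and no GC box. Acly had 4 GC boxes before its start, and its NF-Y box lay 37 bases after it, outside the printed part. Acss2 had 4 GC boxes before the start, 1 after it and an NF-Y box at 73 bases before it. In windows that also take in the 50 bases after the start, the NF-Y box was found in 9 of the 10 genes (10 of 14 windows), all but Acaca, and in 37.4% of the 32851 promoter windows of the table. The GC box was found in 7 of the 14 windows (6 genes), against 35.7% of all windows. The E-box CACGTG was found in 2 of the 14, those of Slc25a1 and of one Mlxipl start, against 7.15%. The wider form CANNTG, which includes CACGTG, was in 11 of the 14 windows (8 genes) and in 72.3% of all windows. A core of the sterol regulatory element, TCACNCCAC, was found in 1 window, that of the second start of Mlxipl, and in 1.24% of all. These are matches of letters. The NF-Y box was found in 4 of the 5 genes called higher below and in all 5 of the others.

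**Figure D1:**
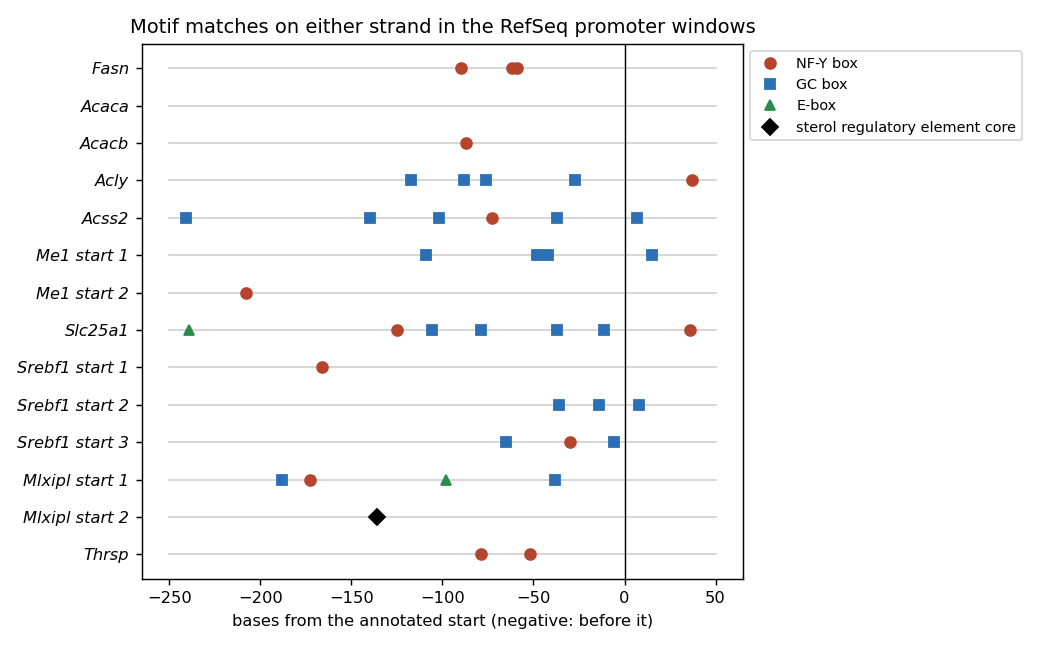
Motif matches in the 14 RefSeq promoter windows of the 10 genes. The x axis gives the distance of the first base of each match from the annotated start in bases, and each grey line is 1 window; the NF-Y box lies on 10 of the 14 lines and the E-box on 2.

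Of the 10 genes 5 were higher on the knockout-labelled arrays, 0 were lower and 5 did not pass (limma with Benjamini-Hochberg adjustment over all 19938 genes, adjusted p under 0.05). Over all genes 3.36% were called higher and 5.13% lower. The 10 genes were chosen with earlier results of these data known, so their counts beside such shares are a description and not a test. Those called were Fasn, Acaca, Acacb, Acly and Me1, the synthase, both carboxylases, the lyase and the malic enzyme. The carrier Slc25a1, the synthetase Acss2, both transcription factors and Thrsp were not called. In the same 5 genes every knockout-labelled array lay above every control array, which held for 14.8% of all genes. Acss2 and Mlxipl lay below every control array, as 12.8% of all genes did. The median log2 difference of the 10 genes was 0.22, that of all genes 0.0033. Of the genes not called, Mlxipl alone had an unadjusted p under 0.05 (0.0190), and no gene was called lower.

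**Figure D2:**
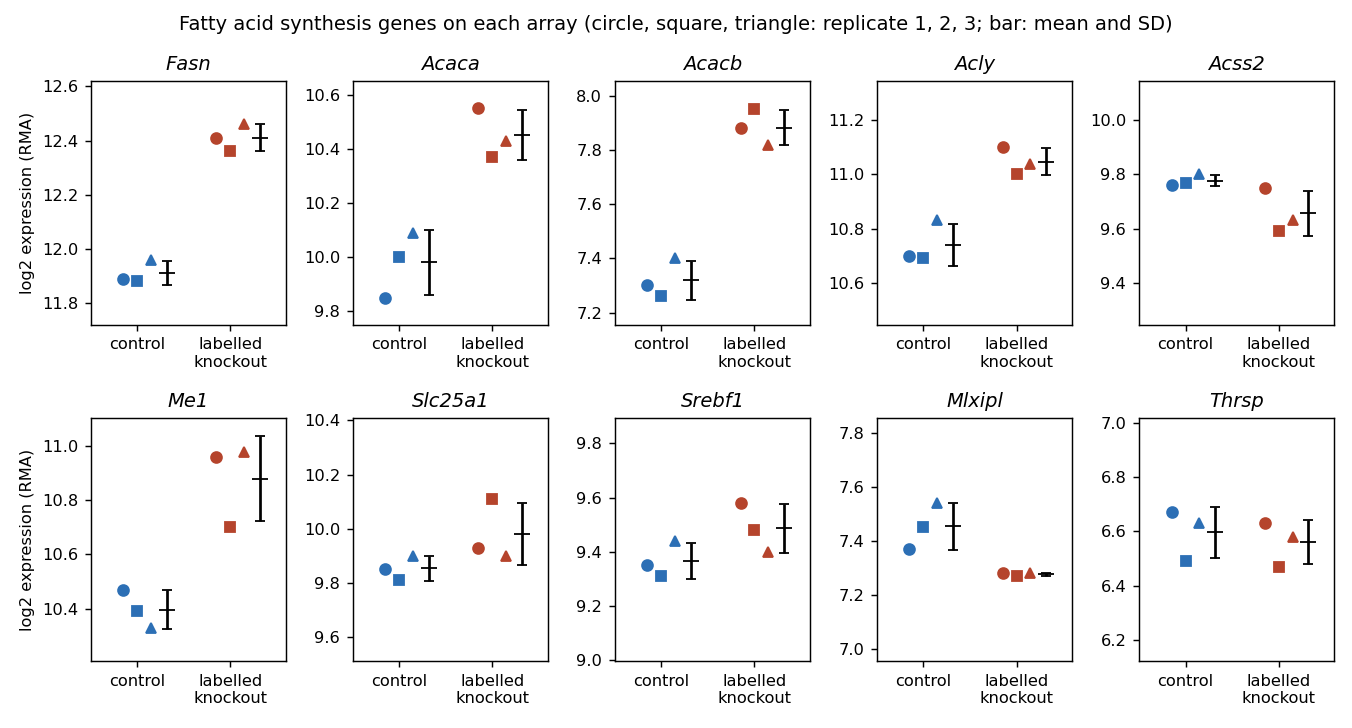
Log2 expression of each of the 10 genes on each array. The y axis is the deposited RMA value, with the same span in every panel but its own position; blue points are control arrays, red points knockout-labelled arrays, and the bar is the mean with SD of the 3 arrays. In Fasn, Acaca, Acacb, Acly and Me1 all red points lie above all blue points.

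Fasn read 12.41, 12.36 and 12.46 on labelled knockout 1, 2 and 3, and 11.89, 11.88 and 11.96 on control 1, 2 and 3. The groups were 0.40 apart at their nearest arrays, while arrays of one group lay within 0.10 of each other. The mean was 12.41 ± 0.05 against 11.91 ± 0.04 (SD, n = 3 each), a log2 difference of 0.50 ± 0.05 (SE) or 1.41-fold (limma adjusted p = 0.00487). Fasn is bright on a scale that ends between 13.32 and 13.43, where array values are compressed. The call held without any 1 array (adjusted p of 0.00402 to 0.0326) and was missed in the 4 female pools alone (0.52, adjusted p = 0.0501).

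Acacb, whose product makes malonyl-CoA at the mitochondrial surface, had the highest difference of the 10. It read 7.88, 7.95 and 7.82 in the knockout-labelled pools, against 7.30, 7.26 and 7.40 in the control pools. The nearest arrays of the groups were 0.42 apart. The log2 difference was 0.56 ± 0.06 or 1.48-fold (limma adjusted p = 0.00490). It too was called without any 1 array (adjusted p of 0.00435 to 0.0321) but not in the female pools alone (0.52, adjusted p = 0.0555).

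Acaca, the cytosolic carboxylase, read 10.55, 10.37 and 10.43 in the knockout-labelled pools, against 9.85, 10 and 10.09 in the control pools. Its control arrays were spread more widely than those of Fasn (SD 0.12), yet stayed below the other group. The groups differed by 0.47 ± 0.08 on log2 or 1.39-fold (limma adjusted p = 0.0161). A second probe set of Acaca read 10.02, 9.88 and 10.14 against 9.48, 9.51 and 9.70, a difference of 0.45 ± 0.09. Both probe sets separated the groups the same way, but they share 2 of their 3 listed accessions and may not be independent readings. When all 35556 probe sets were tested, the second one had an adjusted p of 0.0596. Acaca was not called without labelled knockout 3 (adjusted p = 0.0527), control 1 (0.0590) or control 2 (0.0714), nor in the female pools alone (0.0663).

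The ratio of Acacb to Acaca within each array differed between the groups by 0.09 on log2 (0.13 and 0.10 SD on the knockout-labelled arrays and the control arrays; exact permutation test, two-sided, p = 0.40, Benjamini-Hochberg adjusted 0.40). It was 1 of 4 ratios chosen after the values were seen, and 3 against 3 arrays cannot give a p below 0.10. No difference between the carboxylases in how far they rose was detected at this number of arrays.

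Acly, which makes cytosolic acetyl-CoA from citrate, had the lowest difference of the 5 called genes. It read 11.10, 11 and 11.04 in the knockout-labelled pools, against 10.70, 10.69 and 10.83 in the control pools, where control 3 was the highest. This is a difference of 0.31 ± 0.06 on log2 or 1.24-fold (limma adjusted p = 0.0261). Acly was not called without labelled knockout 3 (adjusted p = 0.0769), control 1 (0.108), control 2 (0.120) or control 3 (0.0534). It also missed the threshold in the female pools (0.114) and when all probe sets were tested (0.0568).

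Acss2, the other cytosolic source of acetyl-CoA, was not called. It read 9.75, 9.59 and 9.63 in the knockout-labelled pools, against 9.76, 9.77 and 9.80 in the control pools. The groups did not overlap, but labelled knockout 1 and control 1 were only 0.01 apart. The log2 difference was -0.12 ± 0.06, with a 95% interval from -0.26 to 0.018 (limma adjusted p = 0.296). It was called under none of the 16 alternative settings, where the difference ran from -0.17 to -0.087. The within-array ratio of Acly to Acss2 was higher on every knockout-labelled array than on any control array, by 0.43 on log2 (exact permutation test, two-sided, p = 0.10, the smallest that 3 against 3 arrays can give, Benjamini-Hochberg adjusted 0.20). The pair was chosen after the values were seen. Knockout-labelled arrays lay above every control in Acly and below every control in Acss2, so this order was fixed and adds no further evidence.

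Slc25a1, the citrate carrier, read 9.93, 10.11 and 9.90 in the knockout-labelled pools, against 9.85, 9.81 and 9.90 in the control pools. The groups touched at labelled knockout 3 and control 3, and labelled knockout 2 was the highest of all. The log2 difference of 0.13 ± 0.07 had a 95% interval from -0.038 to 0.29 (limma adjusted p = 0.359), and no alternative called it. Without labelled knockout 2 the difference was 0.062, and in the female pools alone 0.060. The within-array ratio of Acly to Slc25a1 differed between the groups by 0.18 (exact permutation test, two-sided, p = 0.20, Benjamini-Hochberg adjusted 0.27).

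Me1, which supplies NADPH in the cytosol, read 10.96, 10.70 and 10.98 in the knockout-labelled pools, against 10.47, 10.39 and 10.33 in the control pools. Labelled knockout 2, a male pool, was well below the other arrays of its group but above all controls. The log2 difference was 0.48 ± 0.09 or 1.40-fold (limma adjusted p = 0.0196). A second probe set of Me1, listed with the same 10 accessions, read 10.79, 10.59 and 10.82 against 10.36, 10.31 and 10.27, a difference of 0.42 ± 0.08. The value of Me1 is uncertain to the extent that these probe sets read near-identical copies of the gene. In the female pools alone Me1 was the only one of the 10 genes called (0.61, adjusted p = 0.0446). It was not called without labelled knockout 3 (adjusted p = 0.0667), control 1 (0.0605), control 2 (0.0868) or control 3 (0.0939).

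**Figure D3:**
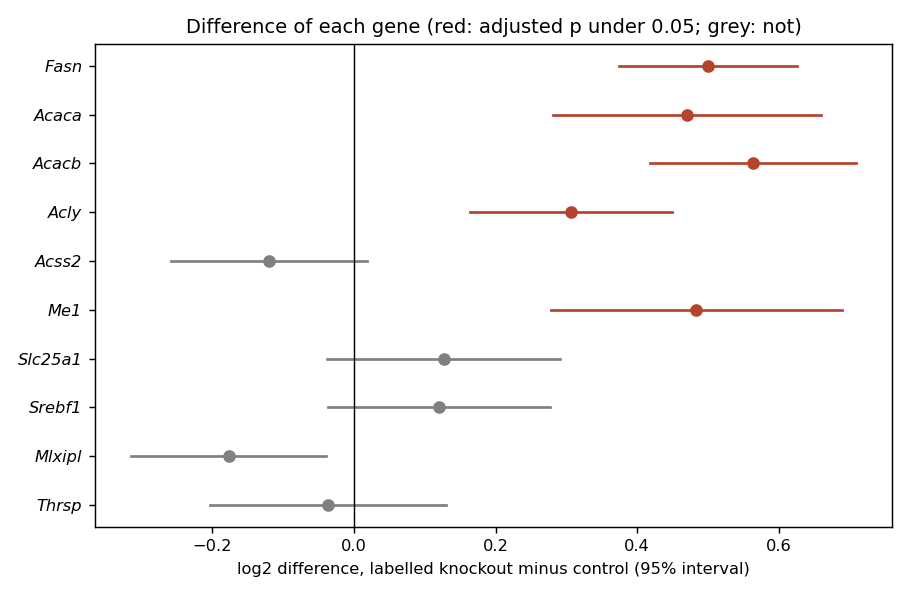
Log2 difference of each gene, knockout-labelled arrays minus control arrays, with its 95% interval from limma. Red marks the 5 genes with an adjusted p under 0.05, which lie between 0.31 and 0.56; grey marks the others, which lie between -0.18 and 0.13.

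Neither transcription factor gene was called. Srebf1, which encodes SREBP1, read 9.58, 9.48 and 9.40 in the knockout-labelled pools, against 9.35, 9.31 and 9.44 in the control pools, so that control 3 stood above labelled knockout 3. Its difference was 0.12 ± 0.07, with a 95% interval from -0.037 to 0.28 (limma adjusted p = 0.363). Srebf1 was called under none of the alternatives, and its difference was 0.073 without labelled knockout 1. Which of the Srebf1 transcripts its probes read is not known here, and mRNA does not show how much of the protein is cleaved to its active form.

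The within-array ratio of Fasn to Srebf1 was higher on every knockout-labelled array than on any control array, by 0.38 on log2 (exact permutation test, two-sided, p = 0.10, the smallest possible, Benjamini-Hochberg adjusted 0.20). This pair too was chosen after the values were seen. The groups lay further apart in Fasn than the whole spread of Srebf1, so this order adds no further evidence.

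Mlxipl, the gene of ChREBP, was the lowest in difference of the 10. It read 7.28, 7.27 and 7.28 in the knockout-labelled pools, against 7.37, 7.45 and 7.54 in the control pools. All 3 knockout-labelled arrays lay below the controls, within 0.01 of each other. The log2 difference was -0.18 ± 0.06, with a 95% interval from -0.31 to -0.039 (limma adjusted p = 0.129). It passed only with the first number of the array titles as a random block (adjusted p = 0.0474, where the adjusted p ran from 0.0826 to 0.339 in the other alternatives); what that number marks is not given in the labels.

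Thrsp read 6.63, 6.47 and 6.58 in the knockout-labelled pools, against 6.67, 6.49 and 6.63 in the control pools, overlapping throughout. Its log2 difference was -0.037 ± 0.071 (limma adjusted p = 0.833). All of these values lie below the median of every array. The sign of the difference turned without labelled knockout 2 (0.0083) and in the female pools alone (0.045).

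Among the knockout-labelled arrays, the male pool, number 2, was the lowest in 7 of the 10 genes and the highest in 2, Acacb and Slc25a1. With sex as a term in the fit, the same number of genes, 5, was called higher. With the replicate number as a block 5 were called higher as well. The count was 2 without labelled knockout 3, control 1 or control 2, 3 without control 3, and 1 in the female pools alone. Calls over all genes fell under the same settings, from 670 higher and 1022 lower to 144 to 310 higher and 301 to 601 lower without one of these arrays.

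**Figure D4:**
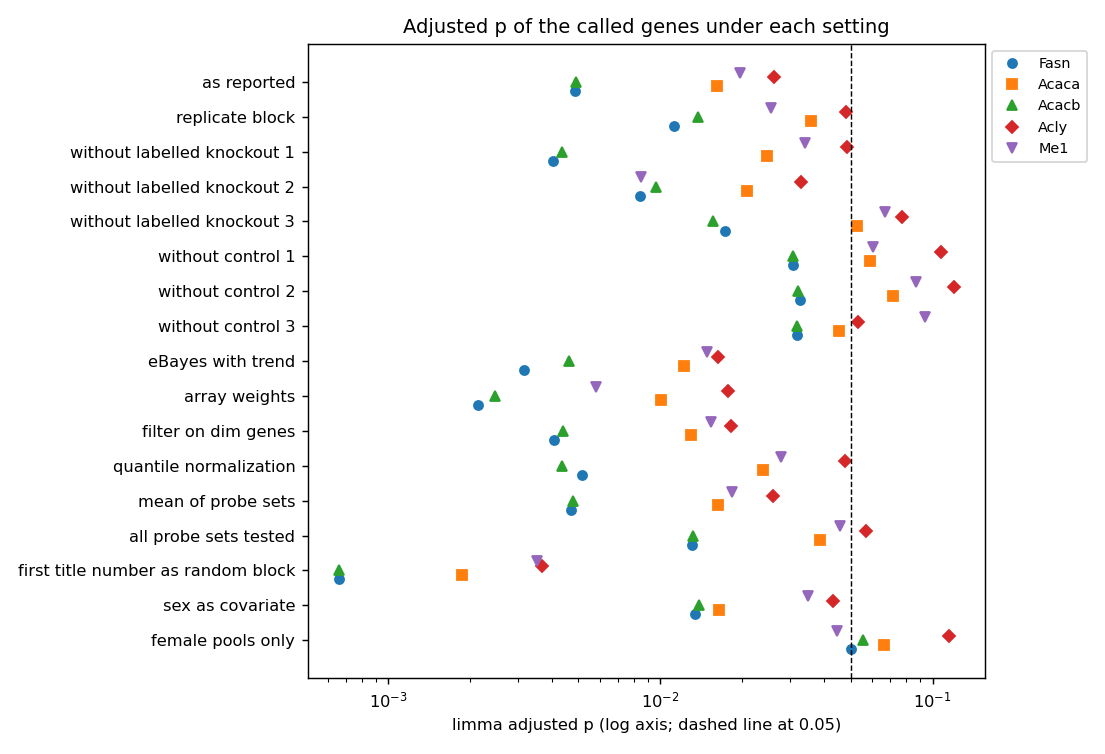
Limma adjusted p of the 5 called genes, on a log axis, as reported and under each of the 16 alternative settings. The dashed line is the threshold of 0.05; Fasn and Acacb stay to its left in all settings but the 4 female pools alone, where they read 0.0501 and 0.0555.

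Other cell types were measured beside these genes. All 14 ciliated cell markers were lower on the knockout-labelled arrays (list means of 8.10 to 8.70 against 9.32 to 9.38), as were 4 of 8 club cell markers (10.72 to 11.49 against 11.39 to 11.60). Of 11 markers of dividing cells 7 were higher (8.45 to 9.04 against 7.94 to 8.14). Over all genes 3.36% were called higher and 5.13% lower. The part of these shifts in the results was not tested, and in pooled cells a change in the share of a cell type and a change in RNA per cell cannot be told apart.

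Adipocyte markers, of interest because fat is rich in Fasn and Thrsp, were dim, with 6 of 8 below the median of all probe sets, 0 called, and means of 6.17 to 6.24 against 6.25 to 6.42. Macrophage and lymphocyte markers were dim too (7 of 9 and 8 of 9 below that median) and 0 of either were called. Labelled knockout 1 had the highest means of both, at 6.11 and 6.33, where the other arrays read at most 5.85 and 5.83. Without that array 5 of the 10 genes were called higher, but the part of macrophages and lymphocytes in the results was not tested. Type I, endothelial and fibroblast lists had 1 of 8 higher, 1 of 10 higher and 1 lower, and 0 of 10 called.

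The wider pathway was followed through 8 lists with 119 genes, of which 109 were measured. On them 12 genes were higher, 4 lower and 93 not called, beside the 3.36% and 5.13% of all genes. Of the 12 higher calls 8 lay on the list of fatty acid activation, desaturation and elongation, which holds enzymes and the carrier Fabp5. The median log2 difference of that list was 0.21 over 24 genes, and no other list had a median above 0.092. Higher calls numbered 6 with the replicate number as a block, 2 to 3 without labelled knockout 3 or any 1 control array, and 2 in the female pools alone.

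**Figure D5:**
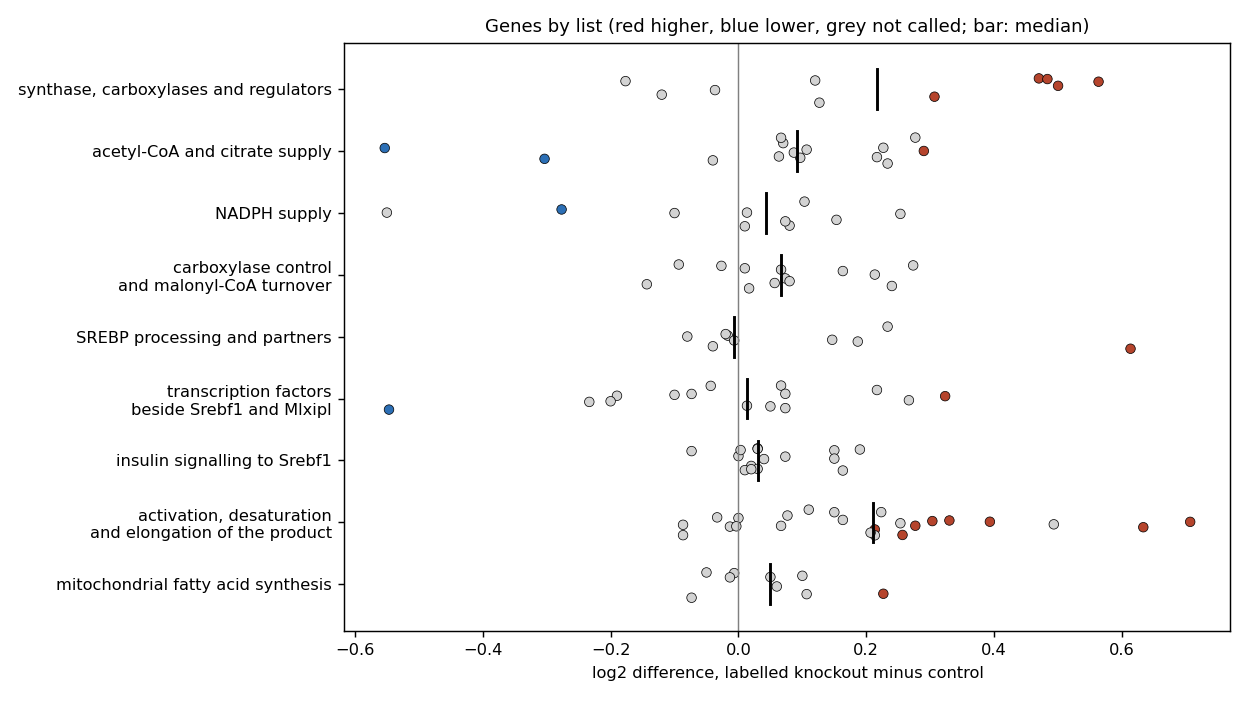
Log2 differences of the 10 genes and of the genes on the 8 pathway lists, knockout-labelled arrays minus control arrays. Each point is 1 gene, red called higher, blue called lower and grey not called, with a bar at the list's median, which is 0.22 for the 10 genes and 0.21 for activation, desaturation and elongation.

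Of 14 measured genes of citrate and acetyl-CoA supply, mitochondrial for the most part, 1 was higher and 2 were lower, with a median of 0.092. Pdhx, a subunit of the pyruvate dehydrogenase complex, rose by 0.29 ± 0.06 (limma adjusted p = 0.0252). The mitochondrial acetyl-CoA synthetase Acss1 fell. It read 10.06, 9.87 and 9.95 in the knockout-labelled pools, against 10.48, 10.50 and 10.56 in the control pools. The groups were 0.42 apart and the difference was -0.55 ± 0.06 (limma adjusted p = 0.00532). Acss1 was called without any 1 array (adjusted p of 0.00165 to 0.0389), with an adjusted p of 0.0522 in the female pools. Slc25a10, the dicarboxylate carrier of the mitochondrion, fell by 0.30 ± 0.07 (adjusted p = 0.0372). Pdhx and Slc25a10 lost their calls without labelled knockout 3 or any 1 control array, where adjusted p reached 0.111 and 0.135.

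Of 10 measured genes of NADPH supply other than Me1, 0 were higher and 1 was lower by limma, with a median of 0.043. G6pdx, the first enzyme of the pentose phosphate pathway, was on the list and was not analysed here. Idh2, the mitochondrial isocitrate dehydrogenase, fell by 0.28 ± 0.05 (limma adjusted p = 0.0252), but missed the threshold with the replicate block (0.0556), with sex as a term (0.0501) and without labelled knockout 3 or any single control pool (up to 0.115). Me2, the mitochondrial malic enzyme, read 8.15, 7.74 and 7.59 in the knockout-labelled pools, against 8.41, 8.33 and 8.39 in the control pools. Its difference of -0.55 ± 0.14 did not pass (adjusted p = 0.0536) and passed without labelled knockout 1 (0.00140), with the replicate block (0.0420), with array weights (0.0151) and with the filter on dim genes (0.0428). H6pd, the hexose phosphate dehydrogenase of the endoplasmic reticulum, stood at 0.25 ± 0.08 (adjusted p = 0.131), and at 0.125 in the female pools alone.

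Genes that control the carboxylases were not called, 0 of 13 in either direction by limma. Closest was Mid1ip1, a partner of acetyl-CoA carboxylase and a relative of Thrsp, which read 10.95, 10.65 and 10.69 in the knockout-labelled pools, against 10.46, 10.50 and 10.51 in the control pools (0.27 ± 0.08, adjusted p = 0.109). That value is of its brightest probe set. The mean over its probe sets differed by 0.053 (adjusted p = 0.650), and without labelled knockout 1 the brightest one differed by 0.18. Prkag2, a regulatory subunit of AMP-activated kinase, which inhibits the carboxylases, stood at -0.14 ± 0.05 (adjusted p = 0.138). Camkk2, a kinase that activates AMP-activated kinase, stood at 0.21 ± 0.09 (adjusted p = 0.231), and at 0.115 without labelled knockout 2.

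Of 9 genes that process SREBP proteins 1 was higher. Erlin1, an endoplasmic reticulum protein tied to SREBP retention, read 9.38, 9.35 and 9.87 in the knockout-labelled pools, against 8.90, 8.86 and 9.0 in the control pools. Labelled knockout 3 stood far above the other 2, and the difference was 0.61 ± 0.14 (limma adjusted p = 0.0406). The call was lost with sex as a term (0.0577) and without any single control pool (up to 0.153). Rnf139 (0.19 ± 0.06) and Erlin2 (0.15 ± 0.05) came next without passing (adjusted p = 0.121 and 0.163).

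Of 15 transcription factors that act with Srebf1 or Mlxipl, 1 was higher and 1 lower. Mlx, the obligate partner of ChREBP, read 9.79, 9.75 and 9.90 in the knockout-labelled pools, against 9.50, 9.53 and 9.44 in the control pools. It rose by 0.32 ± 0.06 (limma adjusted p = 0.0211), where Mlxipl itself stood at -0.18. Pparg, a lipogenic nuclear receptor, read 7.64, 7.32 and 7.37 against 8.15, 7.82 and 8.0 and fell by 0.55 ± 0.11 (adjusted p = 0.0308). Sp1, which binds GC boxes, stood at -0.20 ± 0.05 without passing (adjusted p = 0.0654). It passed with array weights (0.0408), the filter on dim genes (0.0395) and quantile normalization (0.0487). Mlx missed the threshold with the replicate block (0.0524). Without labelled knockout 3 or any 1 control array neither Mlx nor Pparg was called, nor Pparg without labelled knockout 2 or with sex as a term (adjusted p at most 0.0966 for Mlx and 0.121 for Pparg).

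None of 15 genes of insulin signalling passed limma in either direction. Akt1 (0.19 ± 0.05, adjusted p = 0.0584), Akt2 (0.15 ± 0.05, adjusted p = 0.158) and Irs1 (0.15 ± 0.07, adjusted p = 0.305) were the closest. Akt1 passed with a trend in eBayes (0.0362) and with the filter on dim genes (0.0328), and Irs1 stood at 0.095 without labelled knockout 2. On the Akt1 probe set the knockout-labelled arrays read 10.28 to 10.34 and the control arrays 10.11 to 10.15.

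On the list of fatty acid activation, desaturation and elongation 8 of 24 genes were called higher and 0 lower. Whether they act on fatty acids made by the synthase or on others was not tested. Fabp5, which carries fatty acids in the cytosol, read 11.82, 11.68 and 11.70 in the knockout-labelled pools, against 11.02, 11.04 and 11.02 in the control pools. That is a difference of 0.71 ± 0.06 or 1.63-fold (limma adjusted p = 0.00371), called under all 16 alternatives. The desaturase Fads2 rose by 0.63 ± 0.06 (adjusted p = 0.00389), also under all 16, and Fads1 by 0.30 ± 0.06 (adjusted p = 0.0243). Fads1 missed the threshold with the replicate block (0.0579) and without labelled knockout 3 or any 1 control array (adjusted p at most 0.114). The other 5 genes are named because they too were called, and 16 genes of the list were not. Acsl4 (0.33, limma adjusted p = 0.0272) and Acsl5 (0.28, adjusted p = 0.0433) activate fatty acids. The stearoyl-CoA desaturases Scd1 (0.21, adjusted p = 0.0398) and Scd2 (0.26, adjusted p = 0.0372) and the elongation enzyme Hsd17b12 (0.39, adjusted p = 0.0260) were the others. Only 2 pathway genes, Fabp5 and Fads2, were higher without any 1 control array or in the female pools alone. None of these 5 was called there.

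Fatty acid synthesis inside the mitochondrion, a separate route that serves lipoic acid, had 1 of 9 genes higher. That was the reductase Mecr, at 0.23 ± 0.05 (limma adjusted p = 0.0376), which missed the threshold with the replicate block (0.0783). Its call was also lost without labelled knockout 1, labelled knockout 3 or any 1 control array (adjusted p at most 0.137). Lipt2 (0.11 ± 0.05) and Ndufab1 (-0.073 ± 0.052) did not pass (adjusted p = 0.315 and 0.493), and Ndufab1 stood at -0.043 without control 1.

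Over all 19937 other genes, those whose 6 values followed Fasn most closely were Sgpp2, H2-Ea, St3gal1, Tmem97 and 1700025G04Rik. Likeness was the root mean square difference over the 6 arrays after each gene's own mean was subtracted, 0.027 for Sgpp2 and 0.039 for the fifth. Sgpp2 encodes a sphingosine phosphate phosphatase and Tmem97 a sterol-regulated membrane protein. Their description here does not follow rank, since H2-Ea (0.035) and St3gal1 (0.035) lay closer to Fasn than Tmem97 (0.039). Among the 10 genes Acacb was nearest to Fasn at rank 64, then Acaca at 73, Me1 at 127 and Acly at 213. Srebf1 stood at rank 3009, Slc25a1 at 3429, Thrsp at 11522, Acss2 at 15481 and Mlxipl at 16864. The measure includes the difference between the groups, so it repeats in part what is given above.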

How the data were processed

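The authors deposited log2 values. Per the submitters' processing notes, RMA and Affymetrix Expression Console 1.1 were used. RMA removes background, equalises the arrays' distributions and summarises probes, so a shift shared by most genes is removed. No genome build is named for the array in the sources used here. Of 35556 probe sets 21789 had 1 gene symbol in the platform annotation, and they name 19938 genes. The groups, from the array titles, were compared in R 4.3.3 by limma 3.58.1 (lmFit, then eBayes with no trend, two-sided tests, Benjamini-Hochberg adjustment) and no filter, weight or block. The test was checked on simulated data. The genes and lists were chosen with earlier results of these data known. Named were the 10 genes, Gpr116, the 3 genes of each pathway list with the smallest p and the 5 most like Fasn; any other was chosen after its values were seen.

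Each array is a pool of 3 mice, so errors are between pools, and 3 arrays per group limit the precision of every value. The labels call the mice littermates and do not say what the replicate numbers mark. Deviations from the group means of same-numbered arrays had correlations of 0.192, 0.103 and 0.111, above the limit of 0.1 for treating them as pairs. Over all probe sets the second value was 0.038. The highest correlations over the genes with a control array of another number were -0.119, 0.038 and 0.043. Though the limit was passed, the values are low, the reported fit held no pairs and the fit with them is given as an alternative. Alternatives were the replicate number as a block, each array left out, a trend in eBayes, array weights, a filter on dim genes, quantile normalization, the mean of probe sets, a test of all probe sets, the first title number as a random block, sex as a term and the female pools alone. Promoter motifs were counted on both strands of RefSeq windows.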

Additional observations from a re-analysis of the deposited data

How the results depend on the processing

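The 10 genes kept the sign of their difference under every alternative except Thrsp, which ran from -0.09 to 0.0083 with 1 array left out and read 0.045 in the female pools alone. Leaving out 1 array gave 2 to 5 of the 10 genes called higher. It gave 144 to 835 genes higher and 301 to 1265 lower over all genes, and 2 to 14 and 1 to 5 on the pathway lists. In the 4 female pools 1 of the 10 genes was higher, with 114 genes higher and 84 lower in all, and 2 and 0 on the pathway lists. When all probe sets were tested 306 genes were higher and 644 lower, and 3 and 1 on the pathway lists. The replicate number as a block gave 6 pathway genes higher, and sex as a term gave 7 higher and 2 lower. With the first title number as a random block 1 of the 10 genes was lower, 1876 genes were higher and 1804 lower in all, and 25 and 8 on the pathway lists; the estimated correlation within a number was -0.51. That fit also called Mlxipl, Sp1, Prkag2 and Me2 lower, and Mid1ip1, H6pd, Rnf139, Erlin2, Akt1 and Akt2 higher, none of which was called as reported. The replicate number as a block changed the call of none of the 10 genes. Motif counts stayed within 1 gene when the bases after the start were left out. Some of these fits held fewer arrays or more features, but the cause of these shifts was not tested.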

Other observations

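Elovl6, the elongase that acts on palmitate and a known target of SREBP1, was singled out after its values were seen. It read 6.82, 7.85 and 7.01 in the knockout-labelled pools, against 6.97, 7.29 and 7.42 in the control pools, a difference of 0.00 ± 0.26 (SE, 3 pools in each group; limma adjusted p = 1). Labelled knockout 2 stood above every other array and labelled knockout 1 below, a spread wider than that of any of the 10 genes above. Insig1, an SREBP target that retains SREBP in the endoplasmic reticulum, was singled out in the same way. It read 10.70, 10.63 and 10.87 against 10.48, 10.37 and 10.65 (0.23 ± 0.09, adjusted p = 0.201), so control 3 lay above labelled knockout 2. Neither gene stands for its list, where 8 of 24 genes (that of Elovl6) and 1 of 9 (that of Insig1) were called higher.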
